A study of Homo sapiens with 15 samples.

Results

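The genes that cells use to sense oxygen and to run glycolysis were followed in OVCAR4, an established line of human high grade serous ovarian carcinoma, and in 4 platinum-resistant lines derived from it. The 42 genes were chosen by their known role in the hypoxia response or in glycolysis, and the list was drawn up with the values of all 5 lines already in view. Its counts are therefore a description of these lines and no independent evidence that the pathway differs. The deposited table held 40 of the 42 among its 16604 genes. CA9, a carbonic anhydrase, and SLC2A3, a glucose carrier, had no row. By role, the 40 were 4 HIF factors and oxygen sensors, 12 HIF-responsive genes of mixed function, 3 collagen-modifying hydroxylases, 2 transporters of sugar or lactate, 16 glycolytic enzymes and 3 regulators of glycolysis.

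The 5 lines were Ovcar4Parental, which is sensitive and was not selected with platinum; Ov4Cis, a population selected by growth in rising concentrations of cisplatin; Ov4Carbo, a population selected with carboplatin in the same way; and Ov4Carbo4 and Ov4Carbo7, each grown from 1 single cell of Ov4Carbo. Each line was cultured in DMEM with serum, and 3 biological replicates gave 15 polyA-captured RNA samples. Each single-cell line is 1 clone, and the labels do not state whether drug was present at harvest, nor the oxygen level or cell density. The values are log2 RPKM, a measure of reads that accounts for gene length and sequencing depth, and were normalized by the authors with cqn. The deposited values carry no counts, so the depth of each sample is unknown.

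In well oxygenated cells, prolyl hydroxylases of the EGLN family mark the HIF alpha subunits, HIF1A and EPAS1, for destruction. When oxygen falls, or when the hydroxylases are blocked, the subunits persist, pair with ARNT and switch on genes for glucose uptake, glycolysis, blood vessel growth, acid balance, collagen processing and mitophagy. Much of this control acts on the stability of the HIF proteins, which RNA levels do not report, and EGLN3 and EGLN1 are themselves HIF targets. Several glycolytic steps have paralogous enzymes, of which PFKP, ALDOC, ENO2 and HK2 are often linked with tumour metabolism.

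Ov4Carbo7 stood apart from the other lines in most of these genes. Its line mean was the highest of the 5 for 35 of the 40 genes, against 21.9% of all genes in the table. In bulk RNA, fewer cells that express a gene and less RNA per cell cannot be told apart. All 3 of its values lay above all 12 other values for 29 of the 40, where 8.12% of all genes did so. The clone from the same population, Ov4Carbo4, had the lowest line mean for 19 of the 40, against 21.2% of all genes. All 3 of its values lay below the 12 others for 5 genes, EGLN3, NDRG1, ALDOA, LDHA and PDK1, a share near the 8.86% of all genes. A moderated F-test (limma, Benjamini-Hochberg adjustment over all genes) found a difference among lines for 37 of the 40, beside 76.9% of all genes; the exceptions were SLC16A3, PFKL and ENO1.

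**Figure D1:**
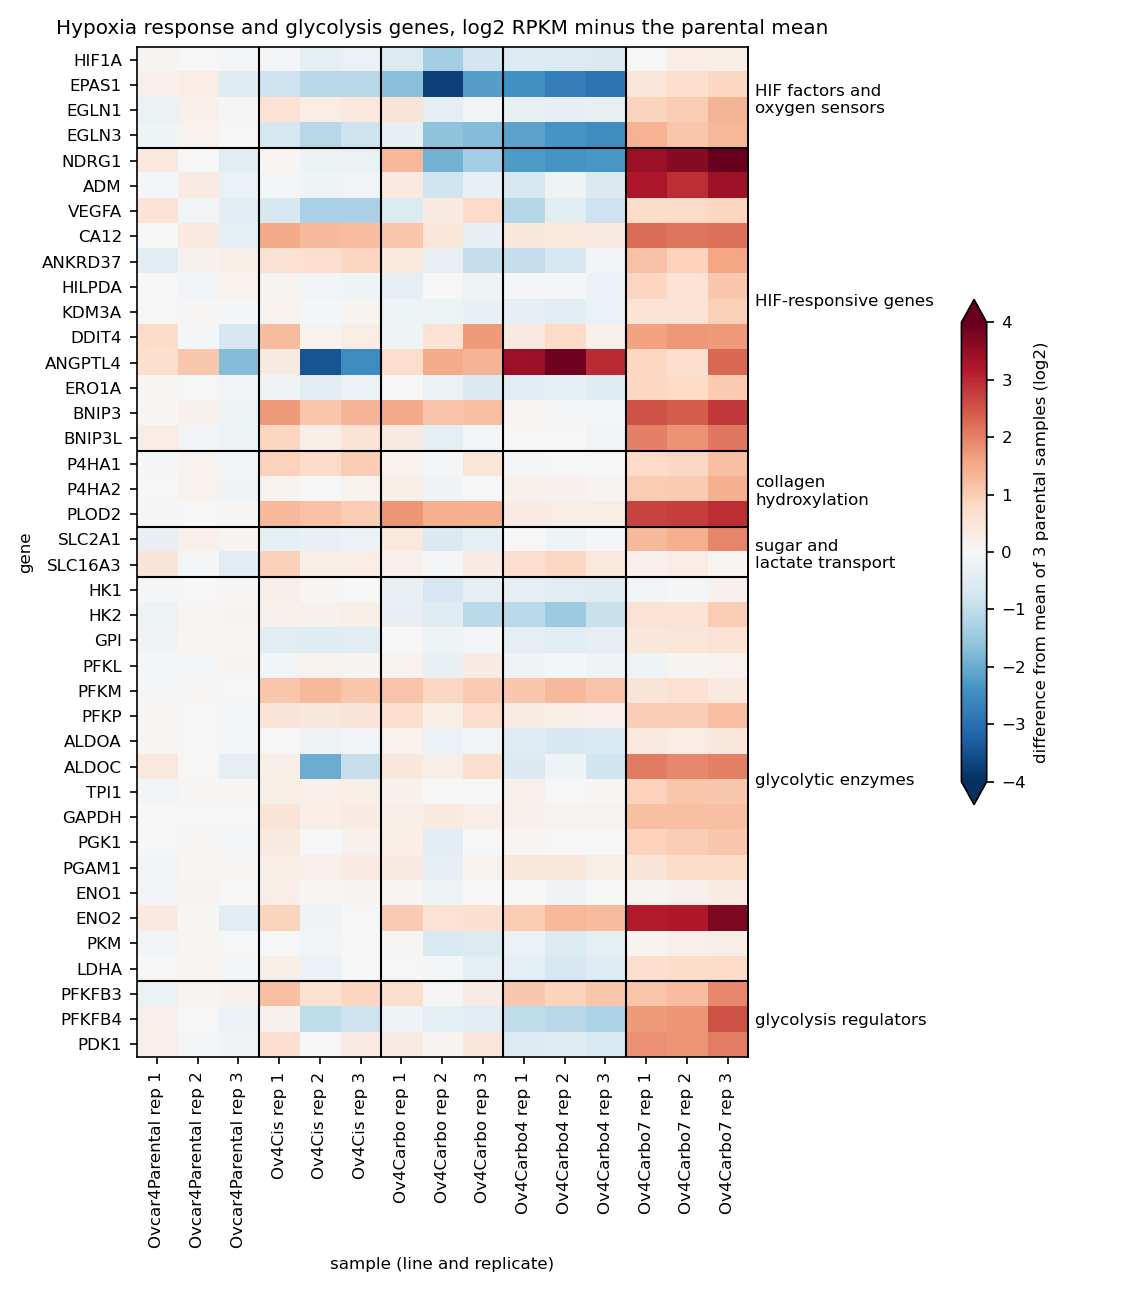
Log2 RPKM of each of the 40 genes (rows, grouped by role) in each of the 15 samples (columns) minus the mean of the 3 parental samples, on a colour scale that saturates at 4 log2 units. The 3 Ov4Carbo7 columns are red in nearly all rows, whereas EPAS1, EGLN3 and NDRG1 are blue in Ov4Carbo4.

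2 features of the samples bear on what follows. The sample titles carry 2 series of numbers: Ov4Carbo replicate 1 and all Ov4Carbo4 and Ov4Carbo7 samples share one, and the parental line, Ov4Cis and Ov4Carbo replicates 2 and 3 share the other. The labels do not say what the numbers stand for. Ov4Carbo replicate 1 also stood apart within its line: over the 40 genes its root mean square difference was 0.83 from replicate 2 and 0.76 from replicate 3 (log2), whereas replicates 2 and 3 differed by 0.47. Ov4Cis replicate 1 did so as well, at 0.82 and 0.60 from replicates 2 and 3, which differed by 0.27. So did Ov4Carbo7 replicate 3, at 0.41 from replicate 1 and 0.41 from replicate 2, which differed by 0.15. Parental replicate 3 lay at 0.60 and 0.53 from replicates 1 and 2, which differed by 0.32. Ov4Carbo7 against Ov4Carbo4 and Ov4Cis against the parental line are comparisons within 1 title series. The others cross the series, which cannot be told apart from the line except through Ov4Carbo. A term for the title series can be estimated from Ov4Carbo alone. With it, each clone is compared with Ov4Carbo replicate 1 alone. The parental line and Ov4Cis are then compared with Ov4Carbo replicates 2 and 3, which gives the same differences as leaving out Ov4Carbo replicate 1. Comparisons within 1 title series keep their differences, and the term changes only their spread. For the 40 genes, counts with that term are given beside each comparison except those of a clone with Ov4Carbo. Values of single genes against the parental line are given where it changed a call. For the other gene lists and the markers, counts with the term are given in some comparisons only.

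Against the parental line, Ov4Carbo7 was higher in 21 of the 40 genes and lower in none, where 9.26% of all genes were called higher and 7.75% lower. Calls required an adjusted p below 0.05 together with a log2 difference of 1 or more, that is a 2-fold difference. All 40 differences were positive, with a median of 1.05 against 0.016 over all genes. By role, 2 of 4 HIF factors and sensors, 7 of 12 HIF-responsive genes, 2 of 3 collagen hydroxylases, 1 of 2 transporters, 6 of 16 enzymes and 3 of 3 regulators were called higher. With the title series term, 12 genes were called higher and none lower, beside 9.24% and 7.4% of all genes in that fit: ADM, VEGFA, CA12, HILPDA, DDIT4, BNIP3, BNIP3L, PLOD2, GAPDH, ENO2, PFKFB4 and PDK1. Without Ov4Carbo7 replicate 3, which stood apart within its line, 18 genes were called higher and none lower.

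The other 3 resistant lines, compared with the same parental samples, each had genes called in both directions. In Ov4Cis, 4 genes were higher (CA12, BNIP3, PLOD2 and PFKM) and 1 was lower (VEGFA), beside 8.46% and 7.41% of all genes. In Ov4Carbo, 3 were higher (BNIP3, PLOD2 and PFKM) and 2 lower (EPAS1 and EGLN3), beside 5.76% and 6.93%. In Ov4Carbo4, 4 were higher (ANGPTL4, PFKM, ENO2 and PFKFB3) and 5 lower (EPAS1, EGLN3, NDRG1, HK2 and PFKFB4), beside 7.43% and 7.7%. The median differences were 0.13, -0.0088 and -0.13. No member was called in the same direction in all 4 lines. With the title series term, Ov4Carbo4 had 9 genes lower (HIF1A, EPAS1, EGLN1, EGLN3, NDRG1, ADM, ANKRD37, HK2 and PKM) and none higher, beside 8.44% and 9.46% of all genes in that fit, and a median of -0.51. With it, Ov4Carbo had 2 higher and 4 lower, beside 7.35% and 7.87%, and Ov4Cis had 4 higher and 2 lower, beside 8.83% and 7.63%. Without Ov4Cis replicate 1, Ov4Cis had 4 higher and 3 lower. The Ov4Carbo result depends on single samples: 6 genes were called without its replicate 1 (2 higher, 4 lower) and 3 without its replicate 3. Leaving out its replicate 1 gives the same differences as the series term, so these are not separate checks.

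**Figure D2:**
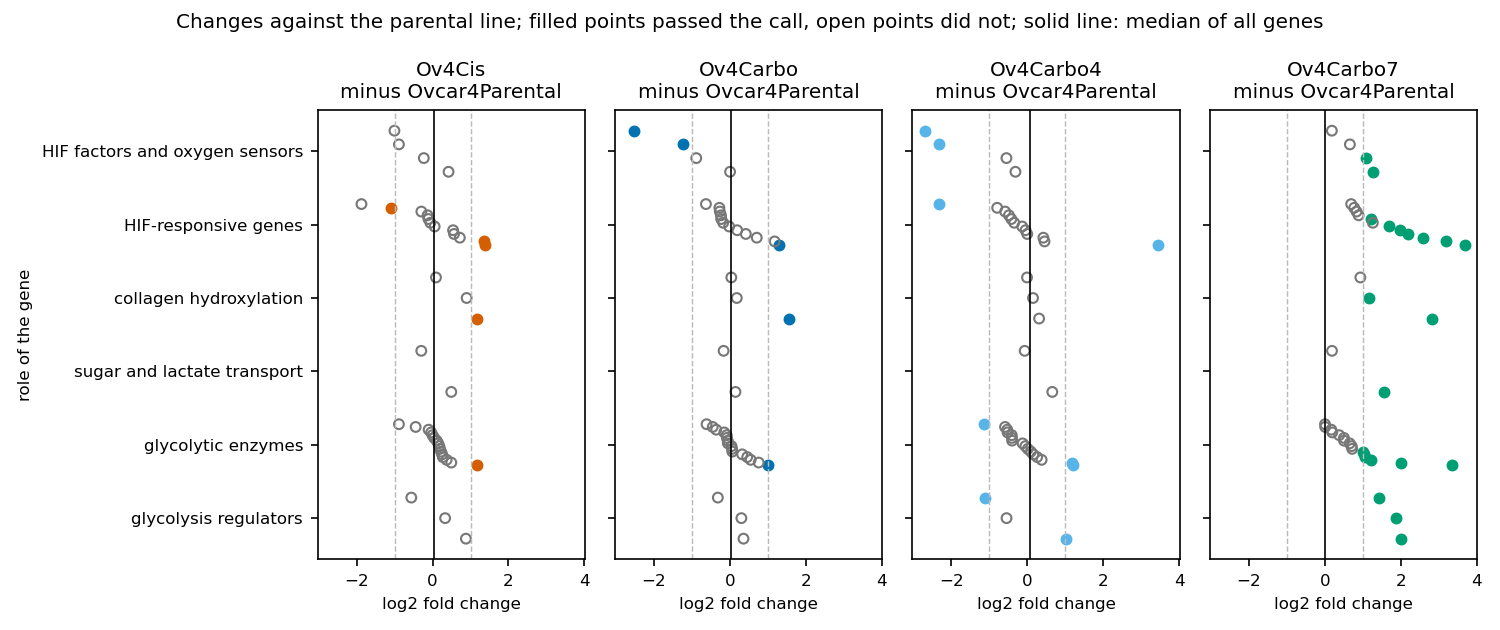
Log2 fold change of each gene against the parental line (x axis) by role (y axis), one panel per resistant line; filled points passed the call, dashed lines mark a difference of 1 and the solid line the median of all genes. In the Ov4Carbo7 panel all 40 points lie right of 0 and 21 are filled, whereas the other panels hold 5 to 9 filled points on both sides.

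Among the 3 lines of carboplatin descent, Ov4Carbo7 stood apart from both Ov4Carbo4 and Ov4Carbo. Ov4Carbo7 was higher than Ov4Carbo4 in 23 of the 40 genes and lower in none, beside 11.1% and 9.86% of all genes, with a median difference of 1.14 against -0.048 over all genes. This comparison lies within 1 title series, so the series term leaves its differences unchanged by construction. Its count with the term was 23, beside 11.3% higher and 10.1% lower of all genes. At an unadjusted p under 0.05 and with no fold limit, limma put 2 of the 40 genes lower in this comparison, 1 lower in Ov4Carbo7 against Ov4Carbo and 0 lower against the parental line. Ov4Carbo7 was higher than its source population Ov4Carbo in 22 genes and lower in none (7.72% and 5.62% of all genes); the count was 16 with the title series term (5.77% and 3.63% of all genes), and 18 to 23 on leaving out each sample. Ov4Carbo4 was lower than Ov4Carbo in 4 genes (EGLN3, NDRG1, BNIP3 and PLOD2) and higher in none, beside 6.64% and 7.58% of all genes; with the series term the count was again 4, beside 6.37% and 7.31%. Without Ov4Carbo replicate 1, the EGLN3 and NDRG1 calls were lost, with differences of -0.67 and -0.71, and VEGFA was called lower.

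Ov4Cis and Ov4Carbo, the 2 selected populations, differed in 4 of these genes. EPAS1 was higher in Ov4Cis and VEGFA, ANGPTL4 and ALDOC were lower, beside 7.88% and 5.9% of all genes. This count of 4 ranged from 1 without Ov4Carbo replicate 3 to 7 without Ov4Carbo replicate 1. It was 2 without Ov4Carbo replicate 2 or without Ov4Cis replicate 2 or 3, and 0 when only these 2 lines were fitted. The title series term gives the same differences as leaving out Ov4Carbo replicate 1, and its count was also 7 (4 higher and 3 lower, beside 9.02% and 7.71% of all genes). Ov4Carbo7 was higher than Ov4Cis in 16 genes and lower in none, beside 7.2% and 7.46% of all genes. That last comparison was added after the other results had been seen, and its count was 9 higher and none lower with the title series term, beside 8.34% and 7.52%.

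The HIF alpha subunits and the oxygen sensors came first in the pathway. HIF1A, the broadly expressed HIF alpha subunit, had log2 RPKM values of 6.995, 6.87 and 6.81 for the parental line, 6.80, 6.54 and 6.64 for Ov4Cis, 6.34, 5.54 and 6.13 for Ov4Carbo, 6.35, 6.35 and 6.33 for Ov4Carbo4 and 6.90, 7.19 and 7.14 for Ov4Carbo7. The parental and Ov4Carbo7 ranges overlap, and the difference of 0.19 (SE 0.17, adjusted p = 0.404) did not pass (limma, as for every difference below). All Ov4Carbo and Ov4Carbo4 values lay below the parental ones, with differences of -0.89 (SE 0.17, adjusted p = 0.00176) and -0.55 (SE 0.17, adjusted p = 0.0208), both under the fold limit. With the series term they were -1.05 (adjusted p = 4.62e-04) and -1.05 (adjusted p = 0.0114), and both were called. Against Ov4Carbo, HIF1A was higher in Ov4Carbo7 by 1.07 (SE 0.17, adjusted p = 4.40e-04). With that term the difference was 0.74, under the limit, and was taken from Ov4Carbo replicate 1 alone.

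EPAS1, which encodes the alpha subunit often called HIF-2 alpha, varied more. Its values were 5.46, 5.55 and 4.77 for the parental line, 4.44, 4.16 and 4.16 for Ov4Cis, 3.57, 1.54 and 3.05 for Ov4Carbo, 2.84, 2.48 and 2.33 for Ov4Carbo4 and 5.74, 5.93 and 6.09 for Ov4Carbo7. EPAS1 fell by 2.54 (SE 0.40, adjusted p = 4.65e-04) in Ov4Carbo and fell by 2.71 (SE 0.40, adjusted p = 1.91e-04) in Ov4Carbo4. The Ov4Carbo samples spread over 2 log2 units, and the Ov4Carbo4 values lay inside their range. Ov4Carbo7 was above the parental line in all 3 values, but its difference of 0.66 (SE 0.40, adjusted p = 0.204) did not pass, and it was 10.32-fold above Ov4Carbo4 (log2 difference 3.37, SE 0.40, adjusted p = 2.19e-05). The difference of -1.004 in Ov4Cis had an adjusted p of 0.0671. It lies within 1 title series, so the series term left it unchanged and altered only its spread, with which it was called (adjusted p = 0.0291). Taking both alpha subunits per gene length, EPAS1 made up 24.6% ± 4.57 (SD, n = 3) of their summed RPKM in the parental line, against 15.9% ± 0.569 for Ov4Cis, 9.73% ± 3.53 for Ov4Carbo, 6.80% ± 1.16 for Ov4Carbo4 and 30.9% ± 1.57 for Ov4Carbo7.

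EGLN3, a HIF-induced prolyl hydroxylase, moved in opposite directions in the 2 clones. It measured 4.40, 4.72 and 4.58 for the parental line, 3.85, 3.47 and 3.72 for Ov4Cis, 4.23, 2.97 and 2.83 for Ov4Carbo, 2.41, 2.19 and 2.08 for Ov4Carbo4 and 5.95, 5.68 and 5.89 for Ov4Carbo7. Every Ov4Carbo7 value was the highest and every Ov4Carbo4 value the lowest of the 15, a 12.2-fold difference between clones (log2 difference 3.61, SE 0.28, adjusted p = 9.50e-07). Against the parental line, EGLN3 rose by 1.27 (SE 0.28, adjusted p = 0.00329) in Ov4Carbo7 and fell by 2.34 (SE 0.28, adjusted p = 4.50e-05) in Ov4Carbo4. With the title series term the rise in Ov4Carbo7 became -0.061 (adjusted p = 0.875) and was not called. That term is estimated from Ov4Carbo alone, whose replicate 1 stood apart, so a series effect and an odd replicate cannot be told apart. EGLN1, the main oxygen sensor of most cells, had a mean of 4.33 ± 0.234 (SD, n = 3) in the parental line and 5.42 ± 0.23 in Ov4Carbo7, a rise of 1.09 (SE 0.20, adjusted p = 9.44e-04). That call too was lost with the series term (log2 difference 0.33, adjusted p = 0.378), under which EGLN1 was called lower in Ov4Carbo4 (log2 difference -1.08, adjusted p = 0.0112). It was lost as well without parental replicate 1 or Ov4Carbo7 replicate 3, where the difference was 0.96.

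The largest difference among the HIF-responsive genes was in NDRG1, a stress-induced gene whose product restrains growth and spread in several tumours. NDRG1 measured 4.62, 4.21 and 3.72 for the parental line, 4.27, 3.96 and 3.92 for Ov4Cis, 5.52, 2.30 and 2.83 for Ov4Carbo, 1.90, 1.79 and 1.86 for Ov4Carbo4 and 7.60, 7.82 and 8.19 for Ov4Carbo7. The Ov4Carbo7 values formed a group more than 2 log2 units above the next sample, Ov4Carbo replicate 1, and the Ov4Carbo4 values lay below all others. The clones differed 65-fold (log2 difference 6.02, SE 0.60, adjusted p = 6.12e-06). Against the parental line NDRG1 rose 12.9-fold in Ov4Carbo7 (log2 difference 3.69, SE 0.60, adjusted p = 3.59e-04) and fell by 2.33 (SE 0.60, adjusted p = 0.00855) in Ov4Carbo4; with the series term the rise in Ov4Carbo7 was 0.74 (adjusted p = 0.201), and the difference in Ov4Carbo, -1.62 (adjusted p = 5.71e-04), was called.

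ADM encodes adrenomedullin, a peptide that dilates vessels and promotes their growth. Its values were 2.13, 2.55 and 1.96 for the parental line, 2.18, 2.04 and 2.10 for Ov4Cis, 2.60, 1.42 and 1.92 for Ov4Carbo, 1.54, 2.01 and 1.64 for Ov4Carbo4 and 5.46, 5.16 and 5.61 for Ov4Carbo7. 12 samples lay at or below 2.60 and the 3 Ov4Carbo7 samples at 5.16 or more, so the line was separated from all others by a gap wider than any spread among them. The rise over the parental line was 9.16-fold (log2 difference 3.19, SE 0.26, adjusted p = 1.42e-06), and ADM passed in every contrast of Ov4Carbo7, by 3.43 against Ov4Carbo, 3.68 against Ov4Carbo4 and 3.30 against Ov4Cis. In Ov4Carbo4 the difference from the parental line was called with the series term, at -1.41 (adjusted p = 0.0109), and not without it.

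VEGFA, the main growth factor for blood vessels, did not follow ADM. It measured 5.91, 5.25 and 4.94 for the parental line, 4.71, 4.06 and 4.07 for Ov4Cis, 4.83, 5.73 and 6.12 for Ov4Carbo, 4.22, 4.96 and 4.55 for Ov4Carbo4 and 6.09, 6.12 and 6.22 for Ov4Carbo7. Ov4Carbo7 lay above the parental values, and overlapped with the highest of Ov4Carbo, and the difference of 0.78 (SE 0.33, adjusted p = 0.0766) from the parental line did not pass. With the series term that difference was 1.88 (adjusted p = 0.0158) and was called. VEGFA fell by 1.09 in Ov4Cis (SE 0.33, adjusted p = 0.0212), a call that was lost without parental replicate 1 or without Ov4Cis replicate 2 or 3. Ov4Carbo7 was above Ov4Carbo4 by 1.57 (SE 0.33, adjusted p = 0.00165).

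CA12, a membrane carbonic anhydrase that helps tumour cells handle acid, was higher in both Ov4Cis and Ov4Carbo7. Its values were 4.70, 5.10 and 4.33 for the parental line, 6.21, 6.01 and 5.95 for Ov4Cis, 5.81, 5.19 and 4.39 for Ov4Carbo, 5.17, 5.15 and 5.08 for Ov4Carbo4 and 6.96, 6.86 and 6.92 for Ov4Carbo7. The Ov4Cis and Ov4Carbo7 samples lay above all parental samples, whereas the Ov4Carbo samples spread from below the parental median to well above it. The rises were 1.35 (SE 0.28, adjusted p = 0.00218) in Ov4Cis and 2.20 (SE 0.28, adjusted p = 4.99e-05) in Ov4Carbo7.

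BNIP3 and BNIP3L encode mitochondrial receptors that direct mitochondria to autophagy. BNIP3 measured 3.08, 3.20 and 2.85 for the parental line, 4.75, 4.16 and 4.40 for Ov4Cis, 4.57, 4.19 and 4.26 for Ov4Carbo, 3.12, 2.99 and 3.01 for Ov4Carbo4 and 5.59, 5.48 and 5.87 for Ov4Carbo7. It rose in Ov4Cis by 1.39 (SE 0.16, adjusted p = 2.84e-05), in Ov4Carbo by 1.29 (SE 0.16, adjusted p = 9.32e-05) and in Ov4Carbo7 by 2.60 (SE 0.16, adjusted p = 2.44e-07). Ov4Carbo4, grown from a cell of Ov4Carbo, had values inside the parental range, and its difference from Ov4Carbo was -1.30 (SE 0.16, adjusted p = 7.54e-05). BNIP3L measured 3.51, 3.11 and 2.999 for the parental line, 4.06, 3.45 and 3.74 for Ov4Cis, 3.57, 2.84 and 3.16 for Ov4Carbo, 3.18, 3.19 and 3.11 for Ov4Carbo4 and 5.23, 5.01 and 5.31 for Ov4Carbo7. Among the 4 resistant lines it was called in Ov4Carbo7 (log2 difference 1.97, SE 0.20, adjusted p = 8.83e-06) and in no other, and the 12 other values lay between 2.84 and 4.06.

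ANGPTL4, a secreted inhibitor of lipoprotein lipase, was the 1 gene whose Ov4Carbo4 samples were above all others. Its values were low and scattered: -0.88, -0.46 and -3.26 for the parental line, -1.18, -4.98 and -4.06 for Ov4Cis, -0.83, -0.061 and -0.18 for Ov4Carbo, 1.88, 2.35 and 1.47 for Ov4Carbo4 and -0.69, -0.86 and 0.75 for Ov4Carbo7. The rise in Ov4Carbo4 against the parental line was 3.43 (SE 0.90, adjusted p = 0.00901), and 1.73 on the scale of log2(RPKM + 1), which counts low values less. With the series term it no longer passed (adjusted p = 0.0857). Ov4Carbo7 overlapped the parental range.

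DDIT4, an inhibitor of the mTOR pathway that responds to hypoxia and other stresses, varied widely between replicates of the parental line, Ov4Cis and Ov4Carbo. It measured 6.68, 5.89 and 5.28 for the parental line, 7.20, 6.10 and 6.24 for Ov4Cis, 5.79, 6.53 and 7.65 for Ov4Carbo, 6.31, 6.74 and 6.16 for Ov4Carbo4 and 7.55, 7.70 and 7.64 for Ov4Carbo7. Ov4Carbo replicate 3 reached the level of Ov4Carbo7, whose 3 values were close together. The rise in Ov4Carbo7 over the parental line was 1.68 (SE 0.45, adjusted p = 0.00947); the difference from Ov4Carbo4, 1.23 (SE 0.45, adjusted p = 0.0368), was lost on leaving out Ov4Carbo4 replicate 1 or 3 or any Ov4Carbo7 replicate.

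The 4 remaining HIF-responsive genes were HILPDA, a lipid droplet protein; KDM3A, a histone demethylase; ERO1A, an oxidase of the endoplasmic reticulum that forms disulfides; and ANKRD37, an ankyrin repeat protein. HILPDA, KDM3A and ERO1A differed between Ov4Carbo7 and the parental line by 0.84, 0.70 and 0.89, each under the fold limit with adjusted p of 5.02e-04, 3.63e-04 and 2.70e-04. HILPDA was called with the series term, at 1.11 (adjusted p = 0.00845). ANKRD37 was called (log2 difference 1.22, SE 0.32, adjusted p = 0.00856) at a mean of 0.35 ± 0.328 against -0.87 ± 0.362, and was not called on the log2(RPKM + 1) scale, where the difference was 0.56. With the series term its difference in Ov4Carbo7 was 0.18 (adjusted p = 0.812), and in Ov4Carbo4 it was called lower, at -1.63 (adjusted p = 0.0246).

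**Figure D3:**
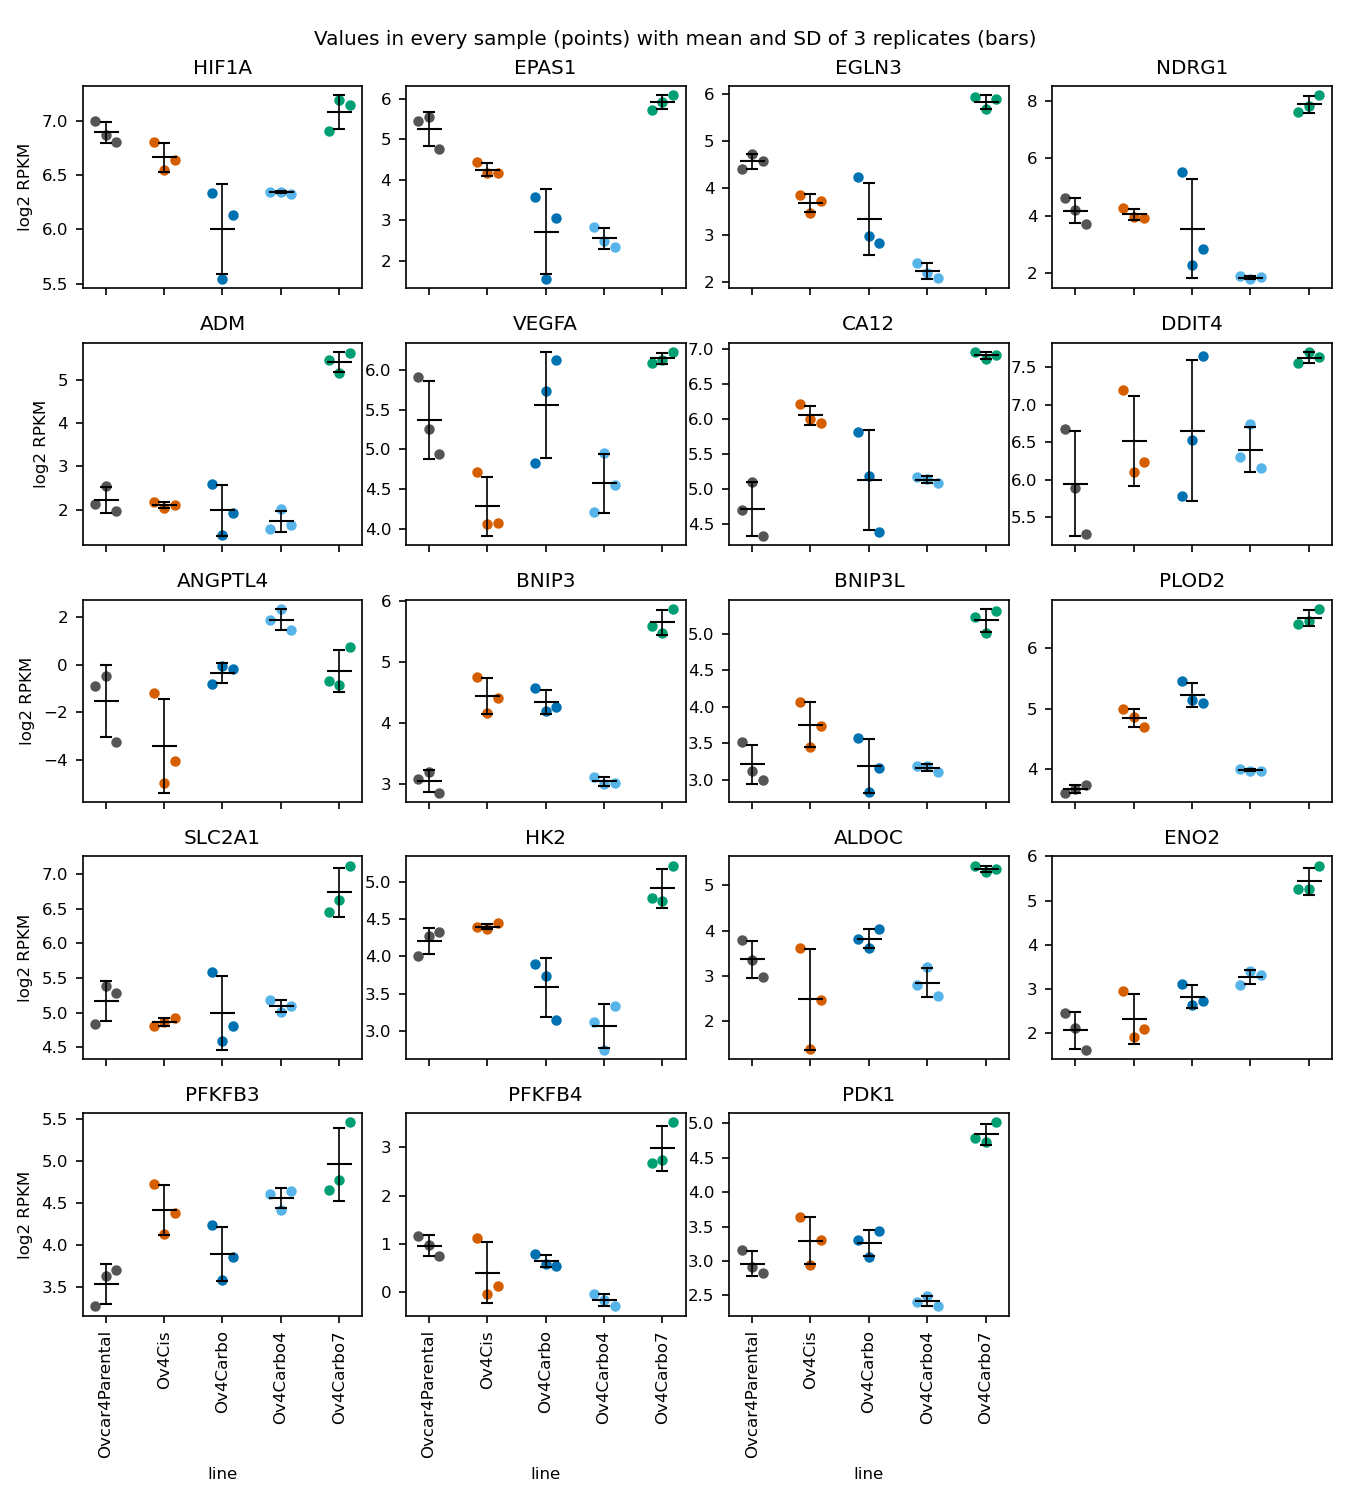
Log2 RPKM (y axis, a separate scale in each panel) of 19 genes in every sample of the 5 lines (x axis); points are samples, bars the mean and SD of 3 replicates. For ADM and NDRG1 the Ov4Carbo7 points sit above all others, whereas for VEGFA they overlap with Ov4Carbo and for ANGPTL4 the Ov4Carbo4 points are highest.

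HIF binds DNA at a short core that reads ACGTG or GCGTG, and the 250 bases before the start site of each gene were searched for these letters on both strands in the promoters of RefSeq (GRCh38.p14, a later build than the authors' hg19). Of the 40 genes, 36 matched an entry; NDRG1, VEGFA, HILPDA and BNIP3L did not. A match was present in 25 of 36 (69.4%), against 57.2% of the 11161 genes of the table with an entry. It was as frequent among genes called higher in Ov4Carbo7 over the parental line (13 of 19, 68.4%) as among those not called (12 of 17, 70.6%). Promoters of the 36 held more G and C (median 69.8%) than those of all genes (65.2%), and the part of this in the match rate was not tested. The windows below, 90 bases each, belong to the 6 genes with the largest rise in Ov4Carbo7 among those called that have a match; they show how the same core sits singly or in clusters. Capitals mark the matches, in either orientation, and each is read 5′ to 3′ on the strand of the gene.
ENO2 (chr12:6914420-6914509, plus strand): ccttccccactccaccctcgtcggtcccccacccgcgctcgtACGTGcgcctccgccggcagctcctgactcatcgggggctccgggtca
ADM (chr11:10304930-10305019, plus strand): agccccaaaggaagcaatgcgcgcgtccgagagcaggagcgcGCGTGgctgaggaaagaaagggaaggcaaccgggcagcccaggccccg
PLOD2 (chr3:146161324-146161413, minus strand): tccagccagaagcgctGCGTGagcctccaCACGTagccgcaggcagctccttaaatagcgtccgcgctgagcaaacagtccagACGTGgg
BNIP3 (chr10:131982002-131982091, minus strand): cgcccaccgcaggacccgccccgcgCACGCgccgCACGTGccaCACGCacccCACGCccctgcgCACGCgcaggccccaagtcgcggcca
CA12 (chr15:63382007-63382096, minus strand): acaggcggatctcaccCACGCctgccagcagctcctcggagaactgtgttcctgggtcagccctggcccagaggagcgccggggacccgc
PFKFB4 (chr3:48556922-48557011, minus strand): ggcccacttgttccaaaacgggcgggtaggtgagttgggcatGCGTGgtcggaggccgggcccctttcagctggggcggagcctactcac
BNIP3 holds 6 matches within these bases, the first of its letters 143, 134, 133, 125, 116 and 104 bases before the start site, and the pair at 134 and 133 is 1 stretch read on both strands. PLOD2 holds 3, at 213, 200 and 146 bases. ENO2, ADM, CA12 and PFKFB4 hold 1 each, at 118, 101, 234 and 166 bases. A match is a stretch of letters and does not show that a factor binds there, and PDK1 and SLC2A1, both called higher in Ov4Carbo7, had no match in this window.

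PLOD2 encodes the lysyl hydroxylase that modifies the ends of collagen chains and so shapes collagen crosslinks. It measured 3.61, 3.68 and 3.74 for the parental line, 4.99, 4.86 and 4.69 for Ov4Cis, 5.45, 5.13 and 5.09 for Ov4Carbo, 4.01, 3.97 and 3.98 for Ov4Carbo4 and 6.39, 6.44 and 6.64 for Ov4Carbo7. The parental samples were the 3 lowest of the 15, Ov4Carbo4 followed, and Ov4Carbo7 was highest, and no 2 of the 5 groups overlapped. PLOD2 rose by 1.17 (SE 0.12, adjusted p = 6.31e-06) in Ov4Cis, by 1.54 (SE 0.12, adjusted p = 1.68e-06) in Ov4Carbo and by 2.81 (SE 0.12, adjusted p = 1.34e-08) in Ov4Carbo7; the difference of 0.31 (SE 0.12, adjusted p = 0.0489) in Ov4Carbo4 was under the fold limit. P4HA1 and P4HA2, catalytic subunits of collagen prolyl hydroxylase, had means of 5.02 ± 0.232 and 5.04 ± 0.23 in Ov4Carbo7 against 4.08 ± 0.13 and 3.87 ± 0.144 in the parental line. Only P4HA2 was called (log2 difference 1.16, SE 0.13, adjusted p = 2.25e-05), which the series term reduced to 0.84, under the fold limit, while P4HA1 reached 0.94, and was higher in Ov4Cis too by 0.90, under the fold limit.

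SLC2A1, the glucose carrier known as GLUT1, brings glucose into the cell. Its values were 4.83, 5.38 and 5.28 for the parental line, 4.80, 4.87 and 4.92 for Ov4Cis, 5.59, 4.58 and 4.81 for Ov4Carbo, 5.18, 5.004 and 5.09 for Ov4Carbo4 and 6.45, 6.63 and 7.12 for Ov4Carbo7. The Ov4Carbo7 samples were the 3 highest, and the 12 other values lay between 4.58 and 5.59. SLC2A1 rose in Ov4Carbo7 by 1.57 (SE 0.24, adjusted p = 2.24e-04), which became 0.67 (adjusted p = 0.137) with the series term, and was 1.64 (SE 0.24, adjusted p = 1.18e-04) above Ov4Carbo4 within 1 title series. SLC16A3, which exports lactate, did not differ among lines in the F-test (adjusted p = 0.107), with line means between 4.07 and 4.73.

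Along the glycolytic chain the differences in Ov4Carbo7 were uneven. The summed RPKM of the 16 enzymes was 2427 ± 75.4 (SD, n = 3) for the parental line, 2605 ± 173 for Ov4Cis, 2421 ± 233 for Ov4Carbo, 2171 ± 86.5 for Ov4Carbo4 and 3781 ± 162 for Ov4Carbo7, which is 1.56 times the parental sum. The 3 Ov4Carbo7 sums, 3642, 3743 and 3959, lay above all others, of which the highest was 2785 in Ov4Cis replicate 1. These sums are dominated by a few abundant enzymes. 

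**Figure D4:**
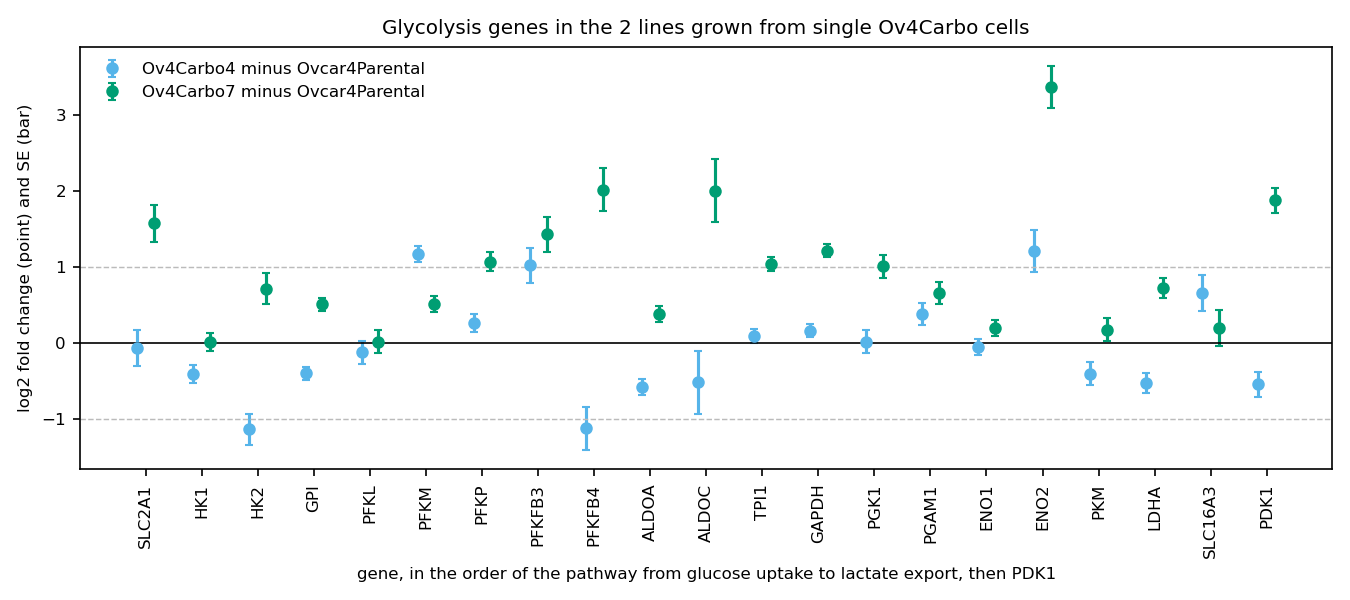
Log2 fold change against the parental line (y axis, points) with its SE (bars) for genes of glucose uptake, glycolysis and lactate export in pathway order, then PDK1 (x axis), in Ov4Carbo4 and Ov4Carbo7; dashed lines mark a difference of 1. ENO2, ALDOC, PFKFB4 and PDK1 reach 1.88 to 3.36 in Ov4Carbo7, whereas HK1 and PFKL lie near 0.

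HK2, an inducible hexokinase that traps glucose as its phosphate, measured 4.01, 4.27 and 4.33 for the parental line, 4.39, 4.37 and 4.44 for Ov4Cis, 3.89, 3.73 and 3.14 for Ov4Carbo, 3.12, 2.75 and 3.33 for Ov4Carbo4 and 4.78, 4.74 and 5.22 for Ov4Carbo7. All Ov4Carbo4 values lay below the parental ones, and HK2 fell by 1.14 (SE 0.20, adjusted p = 8.02e-04), a call lost without Ov4Carbo4 replicate 2. All Ov4Carbo7 values lay above them, by 0.71 (SE 0.20, adjusted p = 0.014), under the fold limit, and the clones differed by 1.85 (SE 0.20, adjusted p = 1.29e-05). HK1, the constitutive form, had means of 6.21 ± 0.0716 in the parental line and 6.21 ± 0.147 in Ov4Carbo7. HK2 made up 19.98% ± 1.08 (SD, n = 3) of the summed RPKM of the 2 hexokinases in the parental line, 13.2% ± 2.55 in Ov4Carbo4 and 28.9% ± 1.84 in Ov4Carbo7.

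The 3 isoforms of phosphofructokinase, which commits sugar to glycolysis, differed in which line they favoured. PFKM, the muscle form, was called higher in Ov4Cis (log2 difference 1.17, SE 0.10, adjusted p = 2.49e-06), Ov4Carbo (log2 difference 1.00, SE 0.10, adjusted p = 2.16e-05) and Ov4Carbo4 (log2 difference 1.17, SE 0.10, adjusted p = 3.60e-06), but not in Ov4Carbo7 (log2 difference 0.51, SE 0.10, adjusted p = 0.00187). The Ov4Carbo and Ov4Carbo4 differences fell just under the fold limit with the series term, at 0.93 and 0.96. PFKP, the platelet form, was called in Ov4Carbo7 and in no other resistant line (log2 difference 1.07, SE 0.12, adjusted p = 2.18e-05), but was 0.85 with the series term and just under 1 without Ov4Carbo7 replicate 3; PFKL, the liver form, had line means between 5.44 and 5.63. PFKM made up 20.1% ± 0.576 of the summed RPKM of the 3 isoforms in the parental line and 31.8% ± 1.40 for Ov4Cis, 28.8% ± 2.35 for Ov4Carbo, 34.9% ± 1.93 for Ov4Carbo4 and 18.8% ± 2.21 for Ov4Carbo7. PFKP made up 39.5% ± 2.69 in the parental line and 54.4% ± 2.39 in Ov4Carbo7 (SD, n = 3 for each).

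ALDOC, the brain-type aldolase, measured 3.79, 3.34 and 2.97 for the parental line, 3.61, 1.38 and 2.45 for Ov4Cis, 3.82, 3.60 and 4.04 for Ov4Carbo, 2.79, 3.19 and 2.56 for Ov4Carbo4 and 5.44, 5.30 and 5.37 for Ov4Carbo7. The Ov4Cis samples spread over more than 2 log2 units, and the Ov4Carbo7 samples, close together, were the 3 highest. ALDOC rose by 2.00 (SE 0.42, adjusted p = 0.00205) in Ov4Carbo7; with the series term the adjusted p was 0.0823. ALDOA, the abundant form, had means of 8.61 ± 0.0607 in the parental line, 8.02 ± 0.073 in Ov4Carbo4 and 8.99 ± 0.0763 in Ov4Carbo7. ALDOC thus made up 2.62% ± 0.619 of aldolase RPKM in the parental line and 7.51% ± 0.356 in Ov4Carbo7.

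ENO2, the neuronal form of enolase, had the second largest difference between Ov4Carbo7 and the parental line. It measured 2.46, 2.13 and 1.63 for the parental line, 2.96, 1.93 and 2.09 for Ov4Cis, 3.12, 2.65 and 2.73 for Ov4Carbo, 3.10, 3.41 and 3.33 for Ov4Carbo4 and 5.26, 5.26 and 5.79 for Ov4Carbo7. Ov4Carbo7 samples were the 3 highest, above a next value of 3.41, and the Ov4Carbo4 samples also lay above all parental ones. ENO2 rose 10.29-fold in Ov4Carbo7 (log2 difference 3.36, SE 0.28, adjusted p = 1.83e-06). Its rise in Ov4Carbo4 was 1.21 (SE 0.28, adjusted p = 0.00423), which was 0.77 with the series term (adjusted p = 0.272) and 0.99 without parental replicate 3. ENO1, the main enolase, had line means between 8.62 and 8.87 and did not pass the F-test. ENO2 made up 1.06% ± 0.357 of enolase RPKM in the parental line, 2.43% ± 0.369 in Ov4Carbo4 and 8.52% ± 1.17 in Ov4Carbo7.

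The enzymes of the lower chain were among the most abundant transcripts of the table. GAPDH, which oxidises the triose phosphate, had a mean of 8.55 ± 0.0277 in the parental line and the same value of 9.76 in all 3 Ov4Carbo7 samples, where it ranked 3 of 16604 genes. The highest value of the table is the same number in all 15 samples, which a quantile normalization gives by construction. The level of such a gene is therefore set by its rank, and its difference of 1.21 (SE 0.085, adjusted p = 5.39e-07) has an SE that such equal values make small. TPI1, the triose phosphate isomerase, and PGK1, the first ATP-forming enzyme, were called at 1.04 (SE 0.093, adjusted p = 3.50e-06) and 1.00 (SE 0.15, adjusted p = 2.02e-04). Both stood at the fold limit: TPI1 fell under it without parental replicate 1, and PGK1 without parental replicate 3 or Ov4Carbo7 replicate 3. With the series term they were 0.84 (adjusted p = 0.00315) and 0.4997 (adjusted p = 0.111), and neither was called. LDHA, which makes lactate, differed by 0.72 from the parental line, under the limit, and by 1.25 (SE 0.13, adjusted p = 9.75e-06) from Ov4Carbo4. GPI, PGAM1 and PKM differed from the parental line by 0.51, 0.66 and 0.17. PKM was called lower in Ov4Carbo4 with the series term alone, at -1.02 (adjusted p = 0.00148). GAPDH, TPI1, PGK1, PGAM1, ENO1, LDHA, ALDOA and PKM have processed pseudogenes of near-identical sequence, so part of their reads may have been assigned elsewhere.

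The regulators were all called in Ov4Carbo7. PFKFB3 and PFKFB4 make fructose 2,6-bisphosphate, the activator of phosphofructokinase, and PDK1 blocks the entry of pyruvate into the citrate cycle. PFKFB3 measured 3.27, 3.63 and 3.71 for the parental line, 4.73, 4.13 and 4.38 for Ov4Cis, 4.24, 3.59 and 3.86 for Ov4Carbo, 4.61, 4.42 and 4.64 for Ov4Carbo4 and 4.65, 4.77 and 5.46 for Ov4Carbo7. The parental samples lay below all but Ov4Carbo replicate 2, and PFKFB3 rose by 1.02 (SE 0.23, adjusted p = 0.00392) in Ov4Carbo4 and by 1.43 (SE 0.23, adjusted p = 3.46e-04) in Ov4Carbo7, whose ranges lay next to each other without overlap. Both calls were lost with the series term (adjusted p = 0.364 and 0.109), and the one in Ov4Carbo4 also without parental replicate 1 or Ov4Carbo4 replicate 1 or 3. PFKFB4 measured 1.17, 0.98 and 0.75 for the parental line, 1.13, -0.044 and 0.14 for Ov4Cis, 0.80, 0.59 and 0.55 for Ov4Carbo, -0.042, -0.15 and -0.29 for Ov4Carbo4 and 2.68, 2.74 and 3.52 for Ov4Carbo7. Here the clones lay on opposite sides of the parental values: PFKFB4 rose by 2.01 (SE 0.28, adjusted p = 1.13e-04) in Ov4Carbo7 and fell by 1.13 (SE 0.28, adjusted p = 0.00709) in Ov4Carbo4. On the log2(RPKM + 1) scale the difference in Ov4Carbo4 was -0.64 and was not called, nor was it with the series term (adjusted p = 0.0752). PDK1 measured 3.16, 2.91 and 2.82 for the parental line, 3.64, 2.95 and 3.30 for Ov4Cis, 3.30, 3.06 and 3.43 for Ov4Carbo, 2.41, 2.49 and 2.34 for Ov4Carbo4 and 4.78, 4.72 and 5.01 for Ov4Carbo7. Its Ov4Carbo7 values were the 3 highest and its Ov4Carbo4 values the 3 lowest of all 15, and it rose in Ov4Carbo7 by 1.88 (SE 0.17, adjusted p = 3.12e-06).

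Other genes of the same pathways gave a divided picture. They came from lists drawn up by function but with earlier results of these data known, so their counts are a description and no independent check. Of 34 further HIF-responsive genes, 17 were called higher and 1 lower in Ov4Carbo7 against the parental line (median 1.01). The shares of all genes were 9.26% and 7.75%. With the series term 12 were higher and 1 lower, beside 9.24% and 7.4% of all genes in that fit. Against Ov4Carbo4, 25 were higher and none lower (median 1.41), beside 11.1% and 9.86%. In Ov4Carbo4 against the parental line 1 was higher and 10 were lower, beside 7.43% and 7.7%. Of 32 further genes of glycolysis, pyruvate and glucose transport, 1 was higher and 1 lower in Ov4Carbo7 against the parental line (median 0.15). The higher one was SLC16A7, a lactate and pyruvate carrier, which was also called in Ov4Cis and Ov4Carbo, and the lower one SLC2A4. With the series term neither was called in Ov4Carbo7, and 1 other gene of this list was called higher there. Of 13 further genes of the HIF machinery, such as ARNT and VHL, none was higher and 2 were lower, ARNT2 and HIF3A, and neither was called with the series term. In both of these lists the share called higher lay below the 9.26% of all genes. None of 11 pentose phosphate genes and none of 20 citrate cycle genes was called in that comparison, where limma gave 4 and 12 of them an unadjusted p under 0.05. SLC2A4, HIF3A and the 2 genes of the next sentence were named after their values were seen. Of 16 ATF4 and unfolded protein response genes, a stress program known to induce DDIT4, 2 were higher, DDIT3 and SLC7A11, beside 9.26% of all genes. With the series term 7 were higher, beside 9.24% of all genes in that fit.

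**Figure D5:**
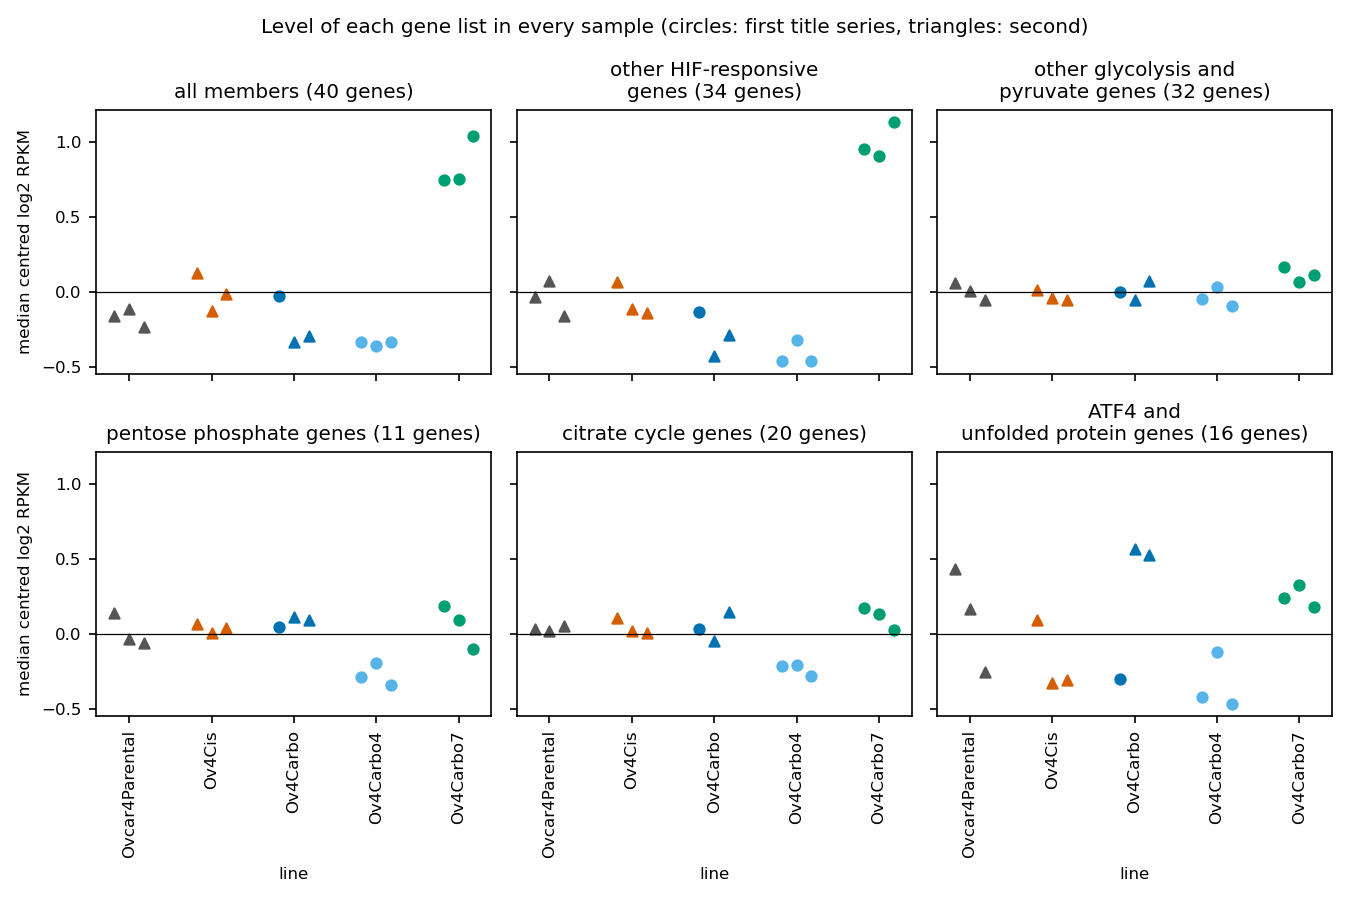
Median over each list of the log2 RPKM centred on each gene's mean over the 15 samples (y axis) in every sample of the 5 lines (x axis); circles and triangles are the 2 title series. The 40 genes stand at 0.74 to 1.04 in Ov4Carbo7 and at -0.36 to -0.33 in Ov4Carbo4, and both clones share a title series. In Ov4Carbo replicates 2 and 3 the 40 genes stand at -0.34 and -0.30. The citrate cycle and pentose phosphate lists lie between -0.34 and 0.19, and their lowest values are also in Ov4Carbo4.

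Markers of the labelled cell type changed too. All 9 serous carcinoma markers had a row, and 6 to 8 of them were above log2 RPKM 0 in each sample. In Ov4Carbo7 against the parental line, 5 were lower (MUC16, KRT7, KRT8, KRT18 and EPCAM) and none higher, beside 7.75% and 9.26% of all genes. The same comparison gave 5 lower and 1 higher in Ov4Cis, beside 7.41% and 8.46%. It gave 1 lower and 1 higher in Ov4Carbo, beside 6.93% and 5.76%. In Ov4Carbo4 it gave 2 lower and 1 higher, beside 7.7% and 7.43%. KRT7 was called lower in each resistant line. Of 10 leukocyte, endothelial and erythroid markers 3 had a row, with 1 higher in Ov4Carbo7, CD14. CDH5 was called higher in Ov4Cis and in Ov4Carbo4 against the parental line. Of 5 fibroblast markers 4 had a row, with 1 higher and 2 lower in Ov4Carbo7. The part of these markers in the results was not tested.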

How the data were processed

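RNA was measured by polyA-captured sequencing in 15 samples, 3 replicates of each of 5 lines, grouped by the line name in the labels. The authors deposited 1 table of log2 RPKM values after cqn (conditional quantile normalization, which adjusts for length and GC content), without counts, so depth is unknown. Per the submitters' processing notes, BWA 0.7.15-r1140 and HTSeq were used with hg19 (GRCh37); strand handling is not given in the sources used here. Sample medians lay between 2.768 and 2.770. No 2 samples were identical.

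All 16604 genes were fitted with limma 3.58.1 in R 4.3.3 on the deposited values, with 1 coefficient per line and all samples sharing the spread, and two-sided p-values were adjusted by Benjamini-Hochberg over all genes in each comparison. Symbols came from a gene name table and matched 16448 of 16604 Ensembl IDs. The members, the other lists and the tests were chosen with earlier results of these data known. Every sample's value is given for HIF1A, EPAS1, the 18 members with the widest range of line means whose highest line mean is at least 1, and members called alike in all 4 comparisons with the parental line, which none were. From other lists, line differences or line means are given for genes called alike in at least 3 of those 4 comparisons with a highest line mean of at least 1, at most 4 a list. Family shares and sums used RPKM converted back from log2. On simulated data for Ov4Carbo7 against the parental line, with 16604 genes, 78 of 100 genes changed by 1.5 log2 and 95 of 100 changed by 2 were called, with 3 false calls. Alternatives were another quantile normalization, median centring, a filter at mean log2 RPKM 1 (12037 genes and 37 members left), log2(RPKM + 1) with a pseudocount of 1, a variance trend, 2-line fits, a replicate block, a title series term, other thresholds and leaving out each sample. Quantile normalization and median centring changed no call of a member. They could change little, since the deposited samples already had near-equal medians and the same top value.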

Additional observations from a re-analysis of the deposited data

Results flagged for a closer look

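In 3 genes the effect against the parental line was called in opposite directions in lines of carboplatin descent, and the difference between the lines was itself tested in the same limma fit. EGLN3 was lower in Ov4Carbo than in the parental line (-1.22) and higher in Ov4Carbo7 (1.27), a difference of -2.49 (adjusted p = 5.63e-05, n = 3 per line, no overlap of values). It was also lower in Ov4Carbo4 (-2.34), which differed from Ov4Carbo7 by -3.61 (adjusted p = 9.50e-07). NDRG1 was lower in Ov4Carbo4 (-2.33) and higher in Ov4Carbo7 (3.69), a difference of -6.02 (adjusted p = 6.13e-06). PFKFB4 was lower in Ov4Carbo4 (-1.13) and higher in Ov4Carbo7 (2.01), a difference of -3.14 (adjusted p = 2.68e-06). The 2 clones share a title series, so the 3 differences between them do not cross it, but their comparisons with the parental line do. With the title series term the rise in Ov4Carbo7 over the parental line was not called for EGLN3 (-0.061, adjusted p = 0.875) or NDRG1 (0.74, adjusted p = 0.201), nor was the fall of PFKFB4 in Ov4Carbo4 (-1.35, adjusted p = 0.0752), so the opposite calls against the parental line held for none of the 3 genes in that fit.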

How the results depend on the processing

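With the title series term, genes called went from 21 to 12 in Ov4Carbo7 against the parental line, from 16 to 9 against Ov4Cis, and from 4 to 7 between Ov4Cis and Ov4Carbo, and EGLN3 in Ov4Carbo7 against the parental line turned from 1.27 to -0.061 (adjusted p = 0.875). In Ov4Carbo4 against the parental line the count stayed at 9, but 4 higher and 5 lower became 0 and 9; the cause was not tested. With no fold limit, more genes were called by construction: 11 in Ov4Cis, 10 in Ov4Carbo and 20 in Ov4Carbo4 against the parental line, 11 in Ov4Carbo4 and 34 in Ov4Carbo7 against Ov4Carbo, 13 between Ov4Cis and Ov4Carbo and 28 in Ov4Carbo7 against Ov4Cis. Ov4Cis against Ov4Carbo gave 0 at an adjusted p under 0.01 and 0 in a fit of those 2 lines. Every 2-line fit has fewer samples to estimate the spread. Ov4Carbo7 against the parental line nevertheless gave 21 calls in such a fit and 21 with all 5 lines fitted. For Ov4Cis against the parental line these counts were 6 and 5, and for Ov4Carbo4 against Ov4Carbo 3 and 4. Why the count between Ov4Cis and Ov4Carbo fell to 0 was not tested. Leaving out each sample in turn gave 3 to 6 genes in Ov4Carbo against the parental line, 1 to 7 between Ov4Cis and Ov4Carbo, and 18 to 22 in Ov4Carbo7 against the parental line. The 7 came without Ov4Carbo replicate 1, which gives the same differences as the series term. The deviations of same-numbered replicates gave r from -0.394 to 0.437 over 30 pairs, 11 of them over 0.1. Deviations within a line of 3 replicates are not independent, so these values cannot decide whether the numbers pair the samples. The fit with a replicate block called 21 genes in Ov4Carbo7 against the parental line and 22 against Ov4Carbo4. Of 109 calls of single genes, 61 held under every setting run. Unknown depth leaves the counting error of low genes such as ANGPTL4 and PFKFB4 unmeasured.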

Other observations

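Among the further HIF-responsive genes, 4 were called in the same direction in at least 3 of the 4 resistant lines against the parental line, all 4 of which share the parental samples. PPP1R3C, a glycogen-targeting subunit of protein phosphatase, was higher in all 4, by 1.36 for Ov4Cis, 1.41 for Ov4Carbo, 1.32 for Ov4Carbo4 and 2.92 for Ov4Carbo7, from a low parental mean of -1.42 log2 RPKM. With the title series term PPP1R3C was not called in Ov4Carbo4 but was still called in the other resistant lines. IGFBP3, which binds insulin-like growth factors, was lower in all 4, from a parental mean of 6.39 to 2.61, 2.66, 2.21 and 4.55, in the same order of lines. IGFBP3 thus stood highest of the resistant lines in Ov4Carbo7, though below the parental line there (log2 difference -1.84, adjusted p = 3.05e-03, limma).

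RAB20, a GTPase of vesicle traffic, was lower in Ov4Cis, Ov4Carbo and Ov4Carbo4 (-1.32, -1.12 and -1.37), and its difference in Ov4Carbo7 was -0.19 (adjusted p = 0.362, limma). TGFA, a ligand of the EGF receptor, was lower in the same 3 lines (-1.29, -2.60 and -1.13), with 0.45 in Ov4Carbo7 (adjusted p = 0.409, limma). ARNT2, a partner of HIF alpha subunits, was lower in Ov4Cis (-1.12), Ov4Carbo (-1.16) and Ov4Carbo7 (-1.72), with 0.71 in Ov4Carbo4 (adjusted p = 0.130, limma). With the title series term ARNT2 was not called in Ov4Carbo7.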
